A study of Sus scrofa with 6 samples.

Results

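ACAD10, ARMC6, STARD7 and NMRK2 are 4 of the 7661 gene records in a table of RNA sequencing counts from the longissimus muscle, the long back muscle, of pigs. Each was found as the 1 record that carries exactly that gene name. They were chosen by their lower level in pigs with high than with low intramuscular fat, so their values in that comparison are a description and carry no test here. All 6 libraries came from freshly taken muscle of *Sus scrofa*, 3 labelled as having a high and 3 as having a low content of intramuscular fat, fat stored inside the muscle itself. No pig is labelled with a treatment or a genetic change, and of breed, sex and age the sources used here say nothing. Nor do the labels say how far apart the groups were in fat content. The design text gives 3 pigs per group, and bulk tissue was sequenced, so that fewer cells of a type and less RNA per cell cannot be told apart.

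The encoded proteins have separate roles. ACAD10 belongs to the acyl-CoA dehydrogenases, mitochondrial and peroxisomal flavoenzymes that open the oxidation of fatty acids and of branched-chain amino acids. NMRK2 phosphorylates nicotinamide riboside to nicotinamide mononucleotide, the direct precursor of NAD, is made mainly in heart and skeletal muscle, and was also described as a protein that binds the integrin receptor of muscle fibres. STARD7 carries phosphatidylcholine from its site of synthesis to the mitochondrial membranes, and a protease of the inner membrane, PARL, divides it between a mitochondrial and a cytosolic pool, the latter of which serves the transport of coenzyme Q. ARMC6 is a protein of armadillo repeats, a fold that binds other proteins, and has no well settled function.

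Library totals were between 25371989 and 34813172 reads, of which 96.6% to 97.2% fell in listed genes. The high libraries were the shallower ones, so levels are compared as CPM, the reads of a gene scaled to a common library total, after correction by TMM (trimmed mean of M values, factors between 0.939 and 1.07). CPM is not divided by gene length, and levels are compared between libraries only. Markers of muscle fibres dominated: ACTA1 stood at 25642 CPM and the creatine kinase CKM at 14064 CPM in the high group. The 8 fibre marker records summed to between 107666 and 120386 CPM in the high and between 99897 and 113765 CPM in the low libraries. Summed levels differed more for cells of fat and connective tissue. The 9 adipocyte markers summed to between 246 and 425 CPM in the high and between 166 and 207 CPM in the low libraries, with 7 of 9 higher in the high group. Every record of the table exceeded 10 CPM in 3 or more libraries. PLIN1, CIDEC and CIDEA, among those 7, had no low library above 10 CPM. They entered the table through the high group alone and had to be higher there to some degree. The 11 fibroblast records summed to between 3301 and 4396 CPM against between 1405 and 2895 CPM, with 11 of 11 higher. The 5 endothelial records summed to between 343 and 389 CPM against between 279 and 393 CPM, the 7 smooth muscle and pericyte records to between 569 and 631 CPM against between 416 and 537 CPM, and the 2 macrophage records to between 47.7 and 74.03 CPM against between 24.3 and 52.9 CPM. HBB, the 1 erythrocyte record, lay between 81.6 and 130 CPM in the high and between 88.8 and 179 CPM in the low libraries. The part of these other cell types in the members' values was not tested.

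All 4 genes were lower in every high library than in any low library. Over the whole table, 13.3% of records were lower without overlap of the groups and 13.5% higher without overlap, and since the members were chosen from this comparison nothing is read from the difference. In the edgeR quasi-likelihood fit over all records, 11 of 7661 passed an adjusted p of 0.05, which is 0.144%, and 1 of them was lower in the high group (0.0131%). The median log2 fold change of all records, as high minus low, was -0.04.

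**Figure D1:**
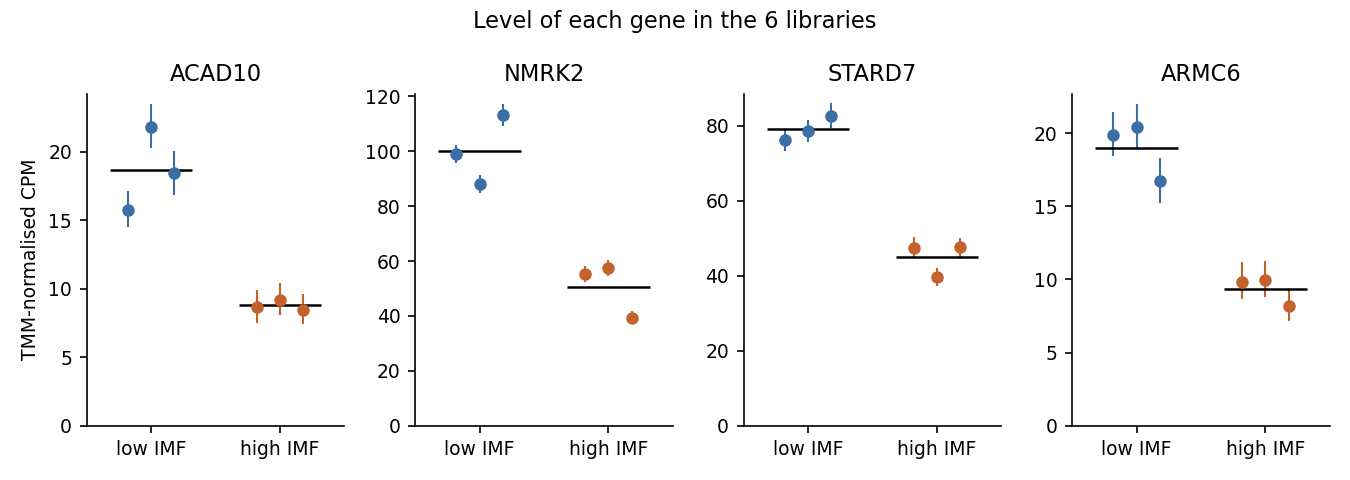
TMM-normalised CPM of ACAD10, NMRK2, STARD7 and ARMC6 in the 3 low and 3 high intramuscular fat (IMF) libraries, in order of replicate number from left to right; bars on points are 95% Poisson counting intervals and black lines are group means. In each panel the 3 high libraries lie below the 3 low libraries, with ACAD10 at 8.77 against 18.7 CPM, NMRK2 at 50.7 CPM in the high libraries and 1.97-fold higher in the low ones, STARD7 at 44.9 against 79.2 CPM and ARMC6 at 9.33 against 18.996 CPM.

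ACAD10, the fatty acid dehydrogenase (ENSSSCG00000009836, chromosome 14, 34963059 to 34971540, minus strand, in the coordinates of the deposited table, whose build is not stated), stood at 8.64, 9.197 and 8.47 CPM in high libraries 1 to 3. In low libraries 1 to 3 it stood at 15.7, 21.8 and 18.4 CPM. The high libraries lay close together and the low ones spread out, low library 2 being the highest of the 6. The means were 8.77 ± 0.380 and 18.7 ± 3.04 CPM (SD, n = 3 per group), and the log2 fold change was -1.09 (SE 0.16), which is 53.0% lower in the high group. With 210 to 243 reads per high library, counting alone gives a coefficient of variation of up to 6.90%, more than the 4.33% seen between the high libraries, whereas the low libraries differed by 16.3%.

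The ACAD10 record spans 8.482 kb and lies wholly inside another record on the same strand, ENSSSCG00000009837 (chromosome 14, 34836041 to 34987049), which no source used here names. That record stood at 16.3, 14.8 and 14.8 CPM in the high and at 22.9, 35.7 and 24.9 CPM in the low libraries, so its groups did not overlap either and low library 2 was again the highest. Its log2 fold change was -0.86 (SE 0.19, edgeR adjusted p = 0.112; DESeq2 adjusted p = 0.00403). How reads in the shared stretch were divided is not given in the sources used here, and the values of both records are uncertain to that extent. The ratio of ACAD10 reads to reads of the enclosing record was 0.530, 0.622 and 0.570 in the high and 0.688, 0.611 and 0.740 in the low libraries, and these ranges overlapped.

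NMRK2, the nicotinamide riboside kinase of muscle (ENSSSCG00000025409, chromosome 2, 75331713 to 75335976, minus strand), stood at 55.3, 57.3 and 39.4 CPM in high libraries 1 to 3. It stood at 98.9, 88.01 and 113 CPM in low libraries 1 to 3. High library 3 was the lowest and low library 3 the highest, and the lowest low library exceeded the highest high library 1.53-fold. The high mean was 50.7 ± 9.81 CPM and the low mean was 1.97-fold higher with an SD of 12.6 CPM (n = 3 per group), giving a log2 fold change of -0.98 (SE 0.18), 49.3% lower in the high group. Counting error was at most 2.97%, well under the 19.3% between the high and the 12.6% between the low libraries.

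STARD7, the phosphatidylcholine carrier (ENSSSCG00000008132, chromosome 3, 49135052 to 49159692, plus strand), stood at 47.5, 39.6 and 47.6 CPM in high libraries 1 to 3. In low libraries 1 to 3 it stood at 76.2, 78.5 and 82.8 CPM. The low libraries were the tighter group, with a coefficient of variation of 4.22% against 10.3% in the high group, where library 2 was lowest. The means were 44.9 ± 4.60 and 79.2 ± 3.34 CPM (SD, n = 3 per group), and the log2 fold change of -0.82 (SE 0.12) was the smallest of the 4, 43.3% lower in the high group.

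ARMC6, the armadillo repeat protein (ENSSSCG00000013927, chromosome 2, 58606501 to 58627845, minus strand), stood at 9.84, 9.96 and 8.19 CPM in high libraries 1 to 3. It stood at 19.9, 20.4 and 16.7 CPM in low libraries 1 to 3. Replicate 3 was the lowest of its group on both sides, and the spread was alike in both, with coefficients of variation of 10.6% and 10.5%. The means were 9.33 ± 0.987 and 18.996 ± 1.99 CPM (SD, n = 3 per group), with a log2 fold change of -1.03 (SE 0.15), 50.9% lower in the high group. The 1.118 kb at the 5′ end of the record overlap SUGP2, a gene of the plus strand, and reads of both cannot be told apart there if strand was not used in counting. SUGP2 itself stood at between 30.8 and 40.3 CPM in the high and between 36.5 and 39.8 CPM in the low libraries, and these ranges overlapped (log2 fold change -0.06, SE 0.14, adjusted p = 0.837).

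The deposited table bears on what can be said of the low-count members. By the authors' values, every one of its 7661 records exceeded 10 CPM in 3 or more libraries. ACAD10 exceeded 10 CPM in 0 high and 3 low libraries, so it entered the table through the low group alone and had to be lower in the high group to some degree. ARMC6 exceeded 10 CPM in 1 high and 3 low libraries. The table holds 49 records with no high library above 10 CPM and 71 with no low library above it. The direction of all such records was set by entry into the table. NMRK2 and STARD7 exceeded 10 CPM in all 6 libraries. In the authors' deposited table the log2 fold changes, turned to high minus low, were -1.09 for ACAD10, -1.03 for ARMC6, -0.98 for NMRK2 and -0.82 for STARD7. The authors' deposited list of 134 genes holds the records whose false discovery rate was below 0.05 and whose log2 fold change was 1 or more in either direction. ACAD10 and ARMC6 lie just inside that limit of fold change and are on the list. NMRK2 lies just outside the limit and STARD7, at -0.82, further outside, and neither is on the list.

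Fold changes in this comparison differed with the span of the gene. NMRK2, at 4.264 kb, falls in the band of 766 records between 3.476 and 7.023 kb, where the median log2 fold change was -0.17 and 76.2% of records were lower in the high group. For ACAD10 the band between 7.025 and 10.743 kb had a median of -0.14. For ARMC6 the band between 15.488 and 21.715 kb had a median of -0.06, and for STARD7 that between 21.716 and 30.514 kb had -0.03. All 4 genes lay further down than the median of their band, by construction of the choice, and the part of gene span in their values was not tested.

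Genes that act beside the 4 were examined in 7 lists of related genes with 68 records in all. Only listed genes with a record are covered, so the medians do not describe whole pathways. These were 12 of 13 genes for the acyl-CoA dehydrogenases, 7 of 25 for NAD and 6 of 15 for START domain genes. They were 8 of 18 for phosphatidylcholine and phosphatidylethanolamine, 11 of 15 for coenzyme Q, 4 of 15 for armadillo repeats and 13 of 16 for integrins. The edgeR test called 0 of the 68, against 0.144% of all records, and limma-voom called 0, against 0.104%. An unadjusted p under 0.05 was found for 14 of the 68 (20.6%), close to the 18.5% of all records. DESeq2 called 5 of the 68 (7.35%), close to its 6.77% of all records. The acyl-CoA dehydrogenases and their electron acceptor, the electron transfer flavoprotein, had 14 records, with 10 lower and 4 higher in the high group and a median log2 fold change of -0.10. ACAD11, the family member closest to ACAD10, stood on the other side of 0. It measured 31.2, 37.6 and 33.4 CPM in high libraries 1 to 3 and 17.7, 19.1 and 20.7 CPM in low libraries 1 to 3, so every high library exceeded every low one. Its log2 fold change was 0.83 (SE 0.13) and did not pass in edgeR (adjusted p = 0.0747) but did in DESeq2 (adjusted p = 1.91e-05). The flavoprotein subunit ETFB had -0.32 (SE 0.12, adjusted p = 0.236) and its oxidoreductase ETFDH, which hands the electrons to coenzyme Q, -0.28 (SE 0.14, adjusted p = 0.315).

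In the list of NAD synthesis and use, 8 records were measured, 7 lower and 1 higher, with a median of -0.15. NMRK1 and NAMPT, which feed the same pool of nicotinamide mononucleotide, are not analysed here. SIRT3, the NAD-dependent deacetylase of mitochondria, stood at 8.44, 7.68 and 9.097 CPM in high libraries 1 to 3 and at 14.2, 20.4 and 31.3 CPM in low libraries 1 to 3. The groups did not overlap, but the low libraries differed among themselves more than 2-fold. No high library exceeded 10 CPM, so the lack of overlap was set by entry into the table. SIRT3 entered it through the low group alone and had to be lower in the high group to some degree. Its log2 fold change was -1.38 (SE 0.28, edgeR adjusted p = 0.108; DESeq2 adjusted p = 3.61e-04), and it passed in edgeR without low library 1 (-1.60, adjusted p = 0.0498). The mitochondrial NAD kinase NADK2, listed as NADKD1, had -0.996 (SE 0.32, adjusted p = 0.187; DESeq2 adjusted p = 0.047), resting in part on low library 3 at 43.9 CPM, and -0.56 without it. The cytosolic deacetylase SIRT2 had -0.11 (SE 0.12, adjusted p = 0.62).

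Nothing passed in the lists around STARD7 by the edgeR test. Of 6 records of START domain genes, the family of STARD7, 5 were higher and 1 lower, and the median was 0.35. Of these, DLC1, STARD13 and STARD8 (0.14) encode larger proteins that hold a START domain and are not plain lipid carriers. The carriers STARD3 and STARD10 had -0.19 and 0.09. DLC1 had 0.67 (SE 0.17, edgeR adjusted p = 0.140, DESeq2 adjusted p = 0.0192). The related STARD13 had 0.60 (SE 0.19, adjusted p = 0.182), and the ceramide carrier CERT1, listed as COL4A3BP, 0.56 (SE 0.22, adjusted p = 0.241). The groups did not overlap for these 3, the records of the list with the lowest p, while 13.5% of all records were higher without overlap. The 8 records of phosphatidylcholine and phosphatidylethanolamine synthesis, 5 lower and 3 higher, had a median of -0.06. Among them the methyltransferase PEMT had -0.32 (SE 0.13, adjusted p = 0.246), the acyltransferase LPCAT3 -0.23 (SE 0.12, adjusted p = 0.337) and the mitochondrial decarboxylase PISD -0.48 (SE 0.33, adjusted p = 0.455), which came to 0.02 without low library 3.

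Of 12 records for coenzyme Q synthesis and the proteases that process STARD7, 10 were lower and 2 higher, with a median of -0.23, and 6 were lower without overlap of the groups, against 13.3% of all records. Those 6 include both records of COQ3, which can share reads. COQ4, a member of the synthesis complex, stood at 26.3 ± 5.15 CPM in the high and 42.2 ± 7.75 CPM in the low group (SD, n = 3 each). This is a log2 fold change of -0.68 (SE 0.19, edgeR adjusted p = 0.155; DESeq2 adjusted p = 0.04). The methyltransferase COQ3 had -0.39 on the lower of its records (SE 0.14, adjusted p = 0.219) and the hydroxylase COQ6 -0.33 (SE 0.12, adjusted p = 0.219). YME1L1, the only protease of the list with a record, was among the 2 higher ones, at 0.11 (SE 0.12, edgeR adjusted p = 0.649). The protease PARL is not analysed here.

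Of 5 records of other armadillo repeat genes, 1 was lower and 4 were higher, with a median of 0.05 and a range from -0.27 to 0.52. ARMC10, a mitochondrial member, had 0.52 (SE 0.17, adjusted p = 0.186) on one record and 0.20 (SE 0.16, adjusted p = 0.511) on another. The former record had no low library above 10 CPM. It entered the table through the high group alone and had to be higher there to some degree. ARMC1 had -0.27 (SE 0.17, adjusted p = 0.400). Among 15 records of muscle integrins and their adaptors, the receptors that NMRK2 was described to bind, 5 were lower and 10 higher, with a median of 0.16. The adaptor kindlin 2, FERMT2, had 0.59 (SE 0.23, adjusted p = 0.232) on one record and 0.38 (SE 0.16, adjusted p = 0.251) on another, which can share reads, and TLN2, a talin of muscle, had 0.44 (SE 0.19, adjusted p = 0.276) on the record ENSSSCG00000004571 and 0.03 (SE 0.16, adjusted p = 0.942) on its more abundant record ENSSSCG00000024088.

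**Figure D2:**
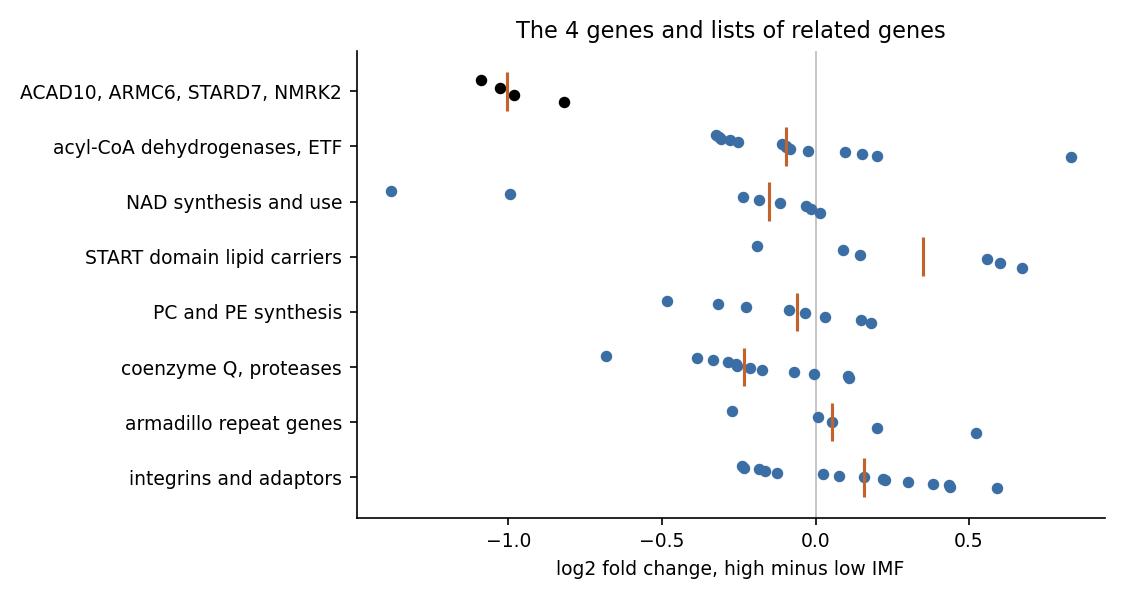
Log2 fold change (high minus low intramuscular fat) of each record, with the 4 chosen genes in black, the 7 lists of related genes in blue and each list's median as an orange line. ETF is the electron transfer flavoprotein, and PC and PE are phosphatidylcholine and phosphatidylethanolamine. The row of START domain lipid carriers also holds larger START domain proteins such as DLC1. List medians lie between -0.23 and 0.35, and SIRT3 (-1.38) and ACAD11 (0.83) are the outermost records of the lists.

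The listed records within 1 Mb of each gene were compared in the same fit, since position had no part in the choice. Around ACAD10, 7 records had log2 fold changes between -0.86 and 0.15 with a median of -0.10, the lowest being the enclosing record. ATXN2 and PRKAB1, the nearest named records of the table on each side at 195 and 176 kb, had 0.15 (SE 0.15) and -0.16 (SE 0.16). Genes without a record can lie nearer, here and below. Around ARMC6, 15 of 18 records were lower, with a median of -0.21 and a range from -0.59 to 0.53. Beyond the overlapping SUGP2, the nearest named records to ARMC6 were ATP13A1, 179 kb away, with -0.305 (SE 0.14, adjusted p = 0.297) and HOMER3, 86.7 kb away, with 0.06 (SE 0.19). Around STARD7, 5 of 11 records were lower, with a median of 0.00 and a range from -0.47 to 0.89. CIAO1, 26.5 kb away, had 0.00 (SE 0.198), and RANBP2, the nearest named record on the other side at 534 kb, 0.19 (SE 0.16). Around NMRK2, 13 of 20 records were lower, with a median of -0.10. ATCAY, 6.99 kb away, had -0.09 (SE 0.23), and the elongation factor EEF2 -0.04 (SE 0.20). PTPRS, a receptor tyrosine phosphatase 914 kb from NMRK2, stood at 9.81, 7.60 and 8.16 CPM in low libraries 1 to 3, all under 10 CPM. It thus entered the table through the high group alone and had to be higher there to some degree. It was the single called record among the neighbours, with a log2 fold change of 1.26 (SE 0.16, edgeR adjusted p = 0.0485). That call was lost under 8 of 12 alternatives, including 5 of the 6 that leave out a library, with adjusted p between 8.42e-09 and 0.218. Each of the 4 genes had a lower log2 fold change than any other listed record within 1 Mb of it, as the choice would favour.

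**Figure D3:**
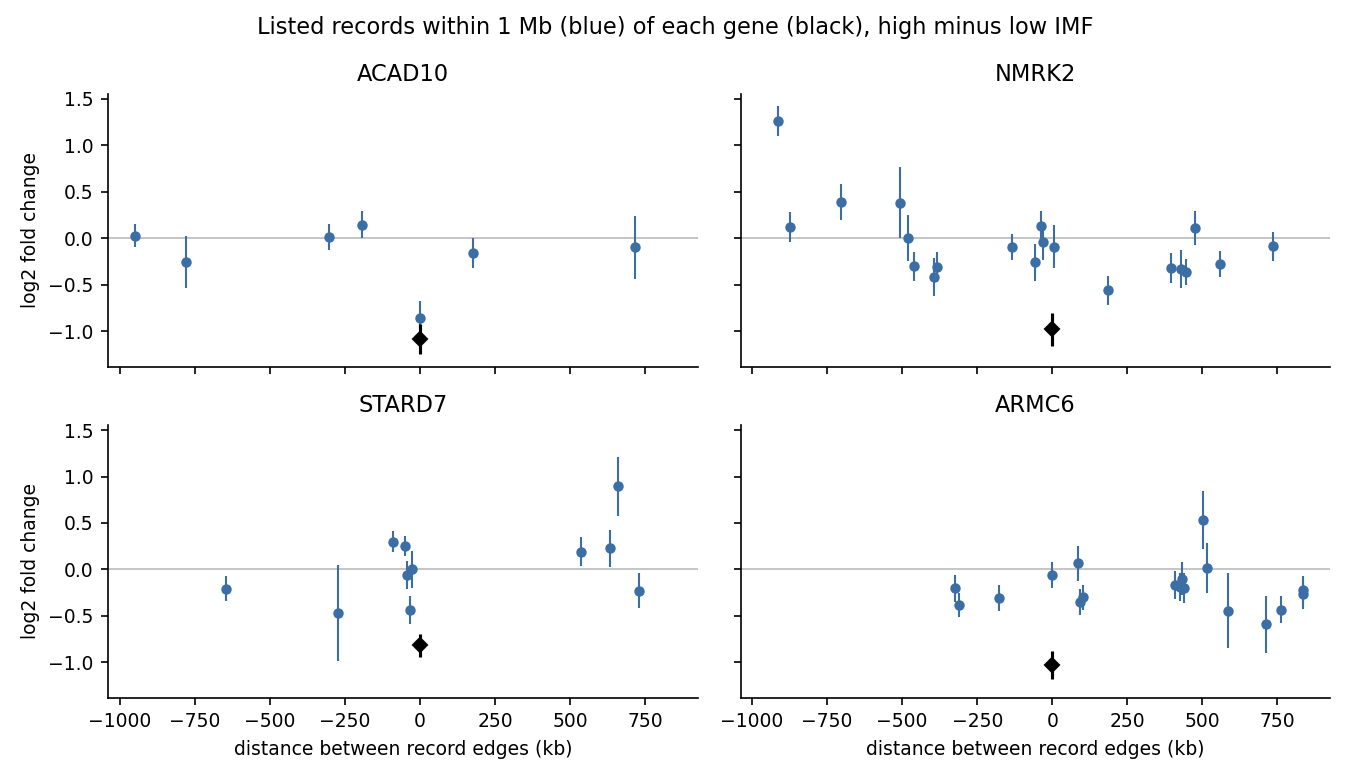
Log2 fold change (high minus low intramuscular fat, with its SE) of listed records against their distance from ACAD10, NMRK2, STARD7 or ARMC6, whose own values are the black diamonds at 0 kb. The blue record beside ACAD10 at 0 kb is the enclosing record (-0.86) and that beside ARMC6 is SUGP2 (-0.06).

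The genes with the most similar profiles over the 6 libraries were found by the root mean square difference (RMS) of log2 CPM after each gene's mean was removed, among 6948 named records. The measure includes the difference between the groups, so these are other genes that were lower in the high libraries. ACAD10 lay nearest to PPAN, a ribosome biogenesis factor (RMS 0.162), followed by ARMC6 (0.169), the mitochondrial ketone body dehydrogenase BDH1 (0.171), the pseudouridine synthase PUS1 (0.183) and ILVBL (0.184). ARMC6 lay nearest to SMCR7L (0.127), BDH1 (0.146), C7H6orf136 (0.164), ACAD10 (0.169) and the mitochondrial ribosomal protein MRPL12 (0.174). Each of ACAD10 and ARMC6 was thus among the 5 nearest genes of the other, as the choice of both by their lower level would favour. With the group means removed, ARMC6 ranked 1856 of 6948 for ACAD10, and ACAD10 ranked 2230 for ARMC6. STARD7 had smaller RMS values to its 5 nearest genes. They were ZNF574 (0.0988), the enoyl-CoA isomerase listed as PECI (0.101), SLC31A2 (0.105), FAM195A (0.106) and the transcription factor CEBPB on its record ENSSSCG00000024816 (0.107). More genes lay around STARD7 at a given RMS. At their RMS of 0.216, ACAD10 ranked 107 for STARD7 and STARD7 ranked 12 for ACAD10. NMRK2 lay nearest to METRNL, a hormone released by muscle and fat (0.110), followed by MRPL12 (0.161), C7H6orf136 (0.165), RASGEF1C (0.182) and GPATCH4 (0.185).

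Among themselves the 4 genes differed in detail. The closest pair was ACAD10 and ARMC6 (RMS 0.169) and the most distant was STARD7 and NMRK2 (0.264). High library 3 was the lowest of its group for NMRK2, whereas for STARD7 the lowest was high library 2 at 39.6 CPM. METRNL stood at 11.9 ± 2.91 CPM in the high and 20.99 ± 1.97 CPM in the low group, BDH1 at 15.4 ± 2.22 and 28.3 ± 5.196 CPM, and CEBPB at 73.8 ± 6.16 and 124 ± 13.0 CPM (SD, n = 3 per group). With the group means removed, so that only differences within groups counted, 0 of the 5 nearest genes stayed the same for any of the 4.

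**Figure D4:**
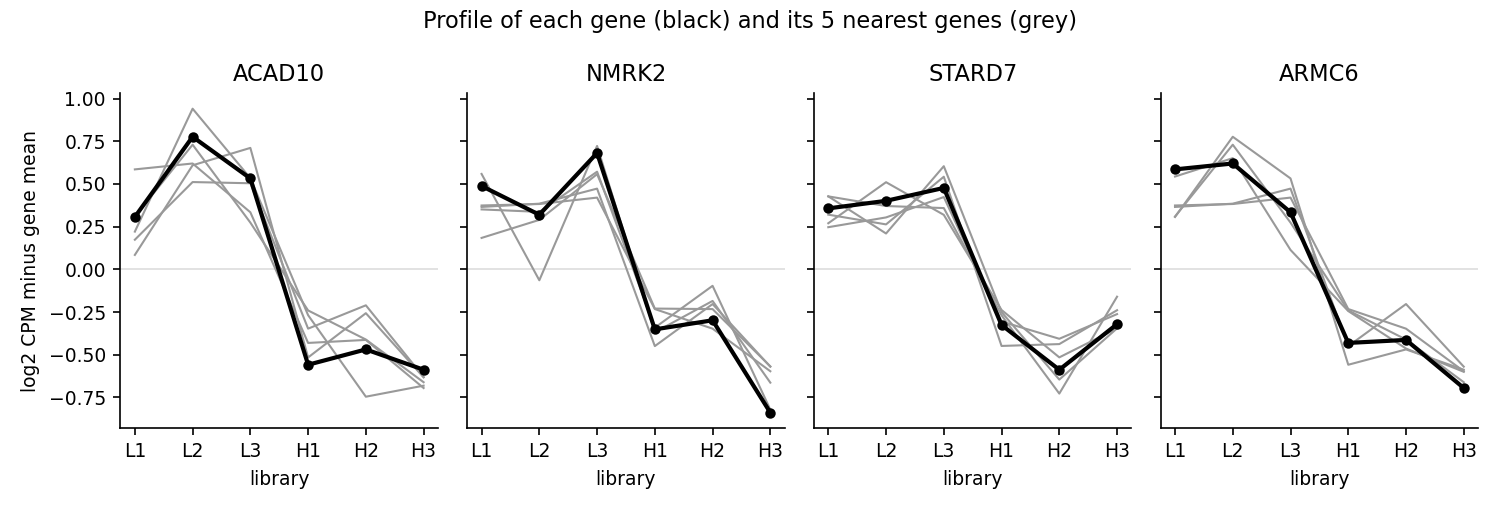
Log2 CPM minus the gene's mean over low libraries 1 to 3 (L1 to L3) and high libraries 1 to 3 (H1 to H3), with each of the 4 genes in black and its 5 nearest genes in grey. The black lines drop between L3 and H1 in every panel, and NMRK2 is lowest in H3 while STARD7 is lowest in H2.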

How the data were processed

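Total RNA of longissimus muscle was extracted with TRIzol and made into Illumina TruSeq libraries, per the labels' protocols. FastQC 0.10.1, Trimmomatic 0.22, TopHat2 2.0.4 and BWA 0.6.2 are named per the submitters' processing notes, whereas neither the read counter and its use of strand nor the build and gene annotation is stated in the sources used here. The authors deposited raw read counts per Ensembl gene, CPM on the library totals, log2 fold changes (low over high, turned around here) and p-values with false discovery rates, per the file headers. The authors' deposited log2 values served for comparison alone. The deposited CPM equalled the count over 1 total per library, which served as library size.

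Here edgeR 4.0.16 (R 4.3.3) was run on the counts of all 7661 records with TMM, filterByExpr, which kept all of them, and the quasi-likelihood F-test on the 2 groups alone, high minus low, adjusted by Benjamini-Hochberg at 0.05. The procedure was tested on simulated counts. Each SE was derived from F, as the size of the fold change (log2) over the root of F. Counting intervals are exact Poisson intervals at 95% and cover counting error only. Log2 CPM for profiles used a prior count of 2. The labels give separate samples and the design text 3 pigs per group. The p-values set the difference between groups against the spread between these libraries within groups. RefSeq (Sscrofa11.1) and an Ensembl table gave names alone, for 131 and 401 unnamed records, and 712 stayed unnamed.

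The members and lists were chosen with earlier results of these data known. Besides the 4 members, named genes are the 3 records with the lowest unadjusted p of each list and any that passed, the 5 nearest profiles per member, and of the neighbours the nearest named record per side and any that passed. ACTA1 and CKM were named as a check of the tissue. PLIN1, CIDEC, CIDEA, STARD3, STARD8, STARD10 and YME1L1 were named to show limits of their lists. The alternatives left out each library in turn, used DESeq2 1.42.0 or limma-voom (limma 3.58.1), scaled by upper quartiles or the size factors of DESeq2, dropped the filter or asked for a mean of 20 CPM, took the replicate number as a block, or set the threshold to 0.1. Promoter and protein features were planned and were not analysed here.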

Additional observations from a re-analysis of the deposited data

How the results depend on the processing

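The log2 fold changes of the 4 genes kept their sign under every alternative that could be run. They also moved by less than the spread within groups. Both outcomes were largely set beforehand where a library was left out. Every high library lay below every low one for each gene, and dropping 1 of 3 libraries moves a group mean by less than their spread. The ranges below are therefore a description. With each library left out, ACAD10 ranged from -1.18 to -0.96, ARMC6 from -1.10 to -0.94, STARD7 from -0.86 to -0.74 and NMRK2 from -1.08 to -0.83. ACAD10 and ARMC6 have no value under a mean CPM of at least 20, which removes them. The 11 calls over all records became 518 in DESeq2 (377 higher, 141 lower), 2 with the replicate number as a block and 77 at a threshold of 0.1 (65 higher, 12 lower). With each library left out they ranged from 1 to 30: 4, 4 and 5 without high replicates 1, 2 and 3, and 30, 1 and 16 without low replicates 1, 2 and 3. Deviations of same-numbered libraries correlated at 0.12, 0.03 and -0.08 across genes for replicates 1 to 3, so the number was not taken as a pairing, and the block left 0 calls in the 7 lists. Calls in the lists went from 0 to 1 in DESeq2 for the acyl-CoA dehydrogenases (ACAD11), the START domain genes (DLC1) and the coenzyme Q list (COQ4). For NAD they went to 2 (SIRT3 and NADKD1). ACAD11 also passed at a threshold of 0.1, giving 1 call. Without low replicate 1, SIRT3, whose direction was set by entry into the table, passed in edgeR (-1.60, adjusted p = 0.0498). The NAD list thus ranged from 0 to 1 calls with each library left out. With each library left out, these changed sign: PISD (-0.67 to 0.019), SUGP2 (-0.12 to 0.053), HOMER3 (-0.15 to 0.23), CIAO1 (-0.12 to 0.25), EEF2 (-0.17 to 0.15) and ATCAY (-0.35 to 0.063). CIAO1 also did with upper-quartile factors (-0.021). For each of the 4 genes the nearest profiles with group means removed shared 0 of the 5 genes, while library totals without TMM gave the same 5. The causes were not tested. The depth gave 210 reads or more per library for each of the 4 genes.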
